A study of Mus musculus with 4 samples.

Results

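Glucocorticoid-responsive genes were read here as 7 genes, of 31053 genes in the count matrices: Tsc22d3, Fkbp5, Per1, Klf9, Sgk1, Ddit4 and Txnip. They were chosen by name as genes that glucocorticoids induce, and each of the 7 was found in the matrices. Glucocorticoid hormones enter cells and bind the glucocorticoid receptor, encoded by Nr3c1, which is held by heat shock protein chaperones until hormone is bound. The receptor then moves to the nucleus, binds response elements and raises transcription of such genes, while it lowers transcription of many inflammatory cytokines. In lymphoid organs these hormones are known for stopping lymphocyte growth, killing immature lymphocytes and changing lymphocyte traffic. The genes also answer to other signals, among them growth factors, hypoxia, glucose and the circadian clock.

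Splenocytes of C57BL/6 mice were profiled one cell at a time in droplets, as 1 RNA library for each of 4 groups. The double knockout lacked miR-146a in the whole body and carried a T cell deletion of miR-155. The miR-146a knockout lacked miR-146a in the whole body. The wild-type (WT) mice carried the floxed miR-155 allele (miR155 fl/fl) and were read as aged WT and young WT. The labels do not say whether that allele also holds for the young group. The aged groups were 15 months old, and cells of 3 to 6 mice were pooled per group, so a library is a pool and spread between mice was not measured. The sources used here do not give the age of the young mice, the Cre driver of the T cell deletion or the sex of the mice. Live CD45+ cells were sorted through a gate of low forward and side scatter that favours lymphocytes, so large and granular cells were selected against in all 4 groups.

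Positions are on GRCm38, from the GENCODE annotation. Tsc22d3 (ENSMUSG00000031431), which encodes the glucocorticoid-induced leucine zipper, a protein that restrains NF-kB and AP-1, spans chrX:140539528-140600659 on the minus strand. Fkbp5 (ENSMUSG00000024222), an Hsp90 co-chaperone that lowers the hormone affinity of the receptor, spans chr17:28399094-28517527 on the minus strand. Per1 (ENSMUSG00000020893), a repressor of the circadian clock, spans chr11:69095217-69109960 on the plus strand. Klf9 (ENSMUSG00000033863), a Kruppel-like transcription factor, spans chr19:23141226-23168134 on the plus strand. Sgk1 (ENSMUSG00000019970), a kinase that acts on ion transport and on FoxO factors, spans chr10:21882184-21999903 on the plus strand. Ddit4 (ENSMUSG00000020108), an inhibitor of the mTOR complex that drives growth, spans chr10:59949669-59951834 on the minus strand. Txnip (ENSMUSG00000038393), which binds thioredoxin and limits glucose uptake, spans chr3:96557957-96561883 on the plus strand. Txnip overlaps Gm15441 on the opposite strand, which had 107 UMIs against 10192 for Txnip. The sources used here do not say whether counting used strand.

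Promoter windows from RefSeq (GRCm38.p6), each from 250 bases before to 50 after an annotated start, were found for 7 of 7 genes, in 15 windows. They were searched on both strands for the palindromic glucocorticoid response element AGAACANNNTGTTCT, for its single arm TGTTCT, for the E-box CACGTG that clock factors bind, and for the cyclic AMP response element TGACGTCA. The full element lay in 3 of 32851 windows of all genes (0.00913%) and in 1 window of these genes, that of one Sgk1 start. There it read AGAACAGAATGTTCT, ending 175 bases before the start, at chr10:21993701-21993715. The single arm was found in 18.97% of all windows, and here in 4 windows of Sgk1 and Tsc22d3. The E-box was found in 7.15% of all windows, and here in 1 window each of Sgk1, Per1 and Fkbp5. In the Sgk1 window the E-box shares bases with a further copy of the single arm. The cyclic AMP element was found in 1.79% of all windows and in 0 of these 15. A match describes letters in this window and not a bound site, and elements farther from the start were not searched. The 4 windows printed are those that hold the full element, the single arm of Tsc22d3 and the E-boxes, because these show how the genes differ at their starts. They are written 5′ to 3′ on the gene's strand, and capitals mark the matches.
Sgk1 (chr10:21993640-21993939, plus strand): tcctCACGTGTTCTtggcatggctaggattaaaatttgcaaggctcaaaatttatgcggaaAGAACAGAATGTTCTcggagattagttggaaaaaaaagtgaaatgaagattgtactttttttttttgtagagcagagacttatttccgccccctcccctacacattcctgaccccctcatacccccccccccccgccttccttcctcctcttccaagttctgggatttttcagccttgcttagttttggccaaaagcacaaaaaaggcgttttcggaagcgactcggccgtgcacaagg
Tsc22d3 (chrX:140600473-140600772, minus strand): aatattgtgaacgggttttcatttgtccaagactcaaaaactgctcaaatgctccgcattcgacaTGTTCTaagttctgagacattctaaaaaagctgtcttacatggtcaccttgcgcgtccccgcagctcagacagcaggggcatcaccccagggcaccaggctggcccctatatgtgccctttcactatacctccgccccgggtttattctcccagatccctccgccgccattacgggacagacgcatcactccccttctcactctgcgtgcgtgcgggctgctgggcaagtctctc
Per1 (chr11:69098699-69098998, plus strand): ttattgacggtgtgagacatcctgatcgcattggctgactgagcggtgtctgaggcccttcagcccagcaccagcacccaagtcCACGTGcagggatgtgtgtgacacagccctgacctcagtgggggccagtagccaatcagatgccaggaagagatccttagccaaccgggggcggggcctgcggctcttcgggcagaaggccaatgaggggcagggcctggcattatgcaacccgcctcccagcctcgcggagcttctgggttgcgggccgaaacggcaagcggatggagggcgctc
Fkbp5 (chr17:28486100-28486399, minus strand): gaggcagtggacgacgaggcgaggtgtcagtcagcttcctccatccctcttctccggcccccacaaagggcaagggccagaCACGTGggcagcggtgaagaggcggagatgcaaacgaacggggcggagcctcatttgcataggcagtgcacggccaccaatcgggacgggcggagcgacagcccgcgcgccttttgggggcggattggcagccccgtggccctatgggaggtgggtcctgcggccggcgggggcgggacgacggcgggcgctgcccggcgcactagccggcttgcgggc

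Libraries held 5702 to 7626 barcodes and 17561683 to 22399381 UMIs, and 4832 to 6821 barcodes per library carried one of the authors' deposited cell type names. Median depth of named cells was 2269 UMIs in the double knockout, 2649.5 in the miR-146a knockout, 2054 in aged WT and 2274 in young WT. Each library shared 2.96% to 3.09% of its barcode sequences with another library. UMIs were summed per named type and library and given as CPM, the gene's UMIs per 1000000 UMIs of that sum, and a type was read in a library only with at least 50 cells. Each group had a single library and no replicate, and no difference was tested. All intervals are at 95% and cover counting error only, not mice, pools or preparations. A ratio was read where both libraries together held at least 20 UMIs of the gene, and it is called past the fold at 1.5-fold or more in either direction. The comparisons share libraries, aged WT above all, so they are not independent of each other. UMIs are not scaled to transcript length, so levels are compared between libraries and cell types and not between genes. Mir155hg, the host transcript of miR-155, was at 12.5 CPM in double knockout T cells, 17.0 in the miR-146a knockout, 9.86 in aged WT and 3.26 in young WT. Which stretch of it the deletion removes is not given, so these levels do not check the label.

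Some type names go against the marker genes. Cells named GC Centroblast held germinal centre markers at a sum of 23.3 to 32.1 CPM over the 4 libraries, whereas GC Centrocyte cells held them at 419 to 1291 CPM, so the name GC Centroblast is used only as the deposited label. Cells named Nai Cd4 held memory markers at 565 CPM in the double knockout, 1088 in the miR-146a knockout, 467 in aged WT and 64.7 in young WT. Granulocyte markers were present in lymphocytes of both knockouts. In follicular B cells (Fo B) 5 or 6 of 6 such markers were detected in each library, at a sum of 1190 CPM in the double knockout, 879 in the miR-146a knockout, 24.8 in aged WT and 14.0 in young WT. Ratios are therefore also given without cells that held 2 or more markers of another class.

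All 7 genes were detected in every library, at very different counts. Over all barcodes Tsc22d3 had 10660 UMIs, Txnip 10192, Ddit4 4787, Sgk1 2037, Fkbp5 1271, Klf9 420 and Per1 311. Klf9 and Per1 could therefore be read in few single types. Nr3c1 itself, with 4624 UMIs, was at 58.7 CPM over all named cells in the double knockout, 56.1 in the miR-146a knockout, 64.1 in aged WT and 61.7 in young WT. In T cells its ratios between compared libraries lay between 1.01 and 1.07, each with an interval that held 1. In B cells the miR-146a knockout was at 0.842 (0.742 to 0.955) of aged WT, and the widest gap in a single type was in Ly6c- Mono, where the double knockout was at 0.536 (0.336 to 0.841) of the miR-146a knockout. Among types its mean over libraries ran between 30.6 CPM in Gran and 106 CPM in Ly6c- Mono.

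Some of the genes differed in level between cell classes, and most overlapped. Where both classes were read in all 4 libraries, Fkbp5 was higher in T cells than in B cells, at 17.3 to 44.1 CPM against 7.35 to 9.69 CPM, or 2.07 to 6.00-fold within a library. Sgk1 was higher in T cells as well, at 33.7 to 59.8 CPM against 10.9 to 17.2 CPM in B cells. Ddit4 was at 97.9 to 142 CPM in T cells and 33.2 to 61.7 CPM in B cells. These 3 of 7 genes did not overlap between the classes in that direction, beside 22.4% of all measured genes. Tsc22d3, Txnip, Per1 and Klf9 overlapped. For Sgk1 and Fkbp5 the class difference did not hold for each type. Mean Sgk1 over libraries was 9.94 CPM in memory CD4 T cells, against 19.9 in Fo B and 33.9 in transitional B cells. Mean Fkbp5 was 24.8 CPM in GC Centrocyte cells, read in 3 libraries, against 14.0 in Nai Cd8. Myeloid cells stood above B cells without overlap for Sgk1 alone, by 2.17 to 2.77-fold (18.5% of all genes did), and T cells stood above myeloid cells for Fkbp5 and Ddit4 (28.8% of all genes did). The counts that involve myeloid cells did not exceed the shares of all genes. Type names probably come from the same counts, so these class differences are a description.

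Among single types Tsc22d3 was highest in 2 B cell types, at 271 ± 104 CPM in transitional B cells (Trans B) and 260 ± 103 CPM in Fo B (SD over 4 libraries). It was lowest in GC Centrocyte cells, at 39.7 ± 20.7 CPM over 3 libraries, apart from Early Act Cd8, which was read in 1 library at 27.9 CPM. Fkbp5 was highest in memory CD4 T cells (Mem Cd4), at 59.5 ± 28.5 CPM. Ddit4 was at 160 ± 23.6 CPM in Mem Cd4 and 147 ± 43.4 CPM in Nai Cd4, against 3.57 CPM in granulocytes (Gran), which were read in the 2 knockout libraries. Sgk1 was at 71.2 ± 15.5 CPM in Nai Cd8 and 67.2 ± 13.2 CPM in Mem Cd8, which overlap. In most cases neighbours in such an order overlapped over libraries. Some pairs of related types, chosen after their values were seen, did not. Naive T cells held more Tsc22d3 than memory T cells of the same lineage in each library, by 1.55 to 2.54-fold for Nai Cd4 over Mem Cd4 (2.89% of measured genes were higher without overlap) and by 1.74 to 3.12-fold for Nai Cd8 over Mem Cd8 (3.18%). Mem Cd8 held 3.70 to 16.8-fold more Sgk1 than Mem Cd4 (5.23% of genes were higher) and less Ddit4, at 0.373 to 0.437 of the level (20.4% were lower). Nai Cd4 held 3.50 to 10.3-fold more Sgk1 than Mem Cd4. Marginal zone B cells (MZ B) held less Sgk1 than Fo B, at 0.221 to 0.497 of its level (5.3% of genes were lower). Cells named GC Centroblast held less Tsc22d3 than Fo B, at 0.274 to 0.414 of its level (14.7% of genes were lower).

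**Figure D1:**
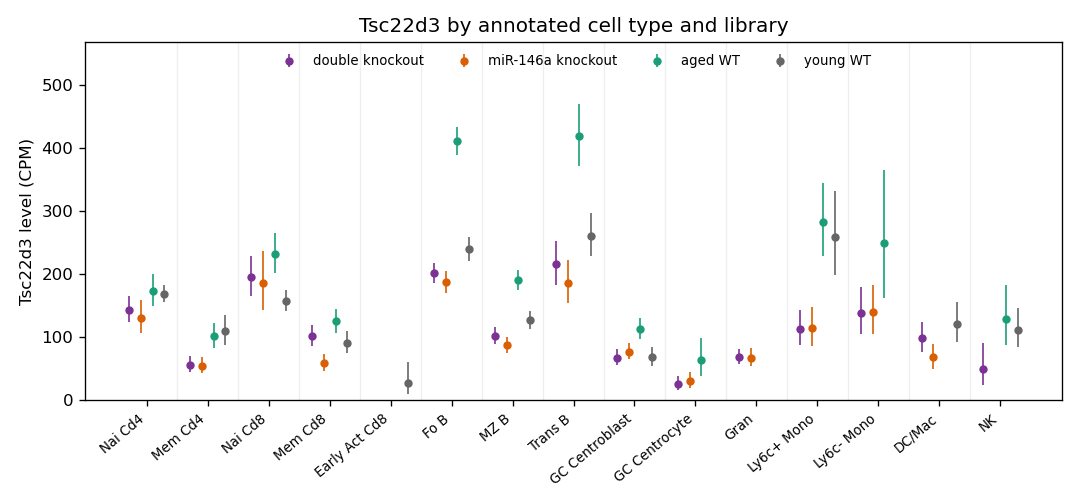
Tsc22d3 level in CPM (vertical axis) for each annotated cell type (horizontal axis) in the double knockout, miR-146a knockout, aged WT and young WT libraries; points are summed UMIs of 1 library, bars are exact Poisson 95% intervals, and types under 50 cells in a library are not drawn. Aged WT stands highest in Fo B at 411 CPM and in Trans B at 419 CPM, while both knockouts lie near 200 CPM there.

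Tsc22d3 was lower in the miR-146a knockout than in aged WT in each of the 11 types that could be read, across T cells, B cells and monocytes. In Fo B it was at 202 CPM in the double knockout, 187 in the miR-146a knockout, 411 in aged WT and 240 in young WT. In Trans B it was at 216, 186, 419 and 261 CPM in the same order of groups, and in MZ B at 102, 87.5, 190 and 127 CPM. Aged WT was the highest library in each of these B cell types, and the knockouts lay below young WT as well. The ratio of the miR-146a knockout to aged WT was 0.455 (0.408 to 0.507) in Fo B, 0.444 (0.355 to 0.552) in Trans B and 0.460 (0.388 to 0.544) in MZ B.

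T cells showed the same direction with a wider range of sizes. In Mem Cd8 Tsc22d3 was at 101 CPM in the double knockout, 59.4 in the miR-146a knockout, 125 in aged WT and 90.8 in young WT. In Mem Cd4 it was at 56.6, 55.1, 101 and 109 CPM in that order. In Nai Cd4 it was at 144 and 130 CPM in the double and the miR-146a knockout, against 173 in aged WT and 169 in young WT. The ratio of the miR-146a knockout to aged WT was 0.475 (0.361 to 0.622) in Mem Cd8, 0.543 (0.397 to 0.741) in Mem Cd4 and 0.752 (0.584 to 0.962) in Nai Cd4, whereas in Nai Cd8 the interval reached 1 (0.800, 0.595 to 1.06). Ly6c+ Mono, the inflammatory monocytes, had 114 CPM in the miR-146a knockout against 283 in aged WT, a ratio of 0.403 (0.285 to 0.566).

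Counted over types, the ratio of Tsc22d3 in the miR-146a knockout to aged WT was past the fold in 8 of 11 and its interval lay below 1 in 10 of 11. In these single types between 7.5% and 15.2% of measured genes were at least 1.5-fold lower. Of the 2617 genes measured in all 11 types, 18 (0.688%) were lower in each. In the double knockout Tsc22d3 was below aged WT in 12 of 12 types, past the fold in 9, with ratios between 0.384 in NK and 0.842 in Nai Cd8; 1.4% of genes measured in those types were lower in each, and between 6.31% and 13.2% were past the fold downward in a single type. By class the ratio of the miR-146a knockout to aged WT was 0.531 (0.464 to 0.608) for T cells, 0.440 (0.407 to 0.475) for B cells and 0.377 (0.308 to 0.462) for myeloid cells. Without cells holding markers of another class it was 0.584 for T cells, 0.521 for B cells and 0.351 for the myeloid class. The myeloid class differed in make-up, since Gran made up 461 and 293 of its cells in the double and the miR-146a knockout against 16 in aged WT and 37 in young WT. With the aged WT mix of types applied to both libraries, the T cell ratio was 0.664.

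Age went with more Tsc22d3 in B cells and less clearly elsewhere. Aged WT over young WT gave 1.71 (1.55 to 1.88) in Fo B, 1.60 (1.34 to 1.92) in Trans B and 1.65 (1.27 to 2.15) in GC Centroblast. In T cells as a class the ratio was 1.06 (0.963 to 1.16), or 1.20 with the aged WT mix of types. Nai Cd8 alone of the naive T cell types had an interval above 1, at 1.47 (1.24 to 1.74). The ratio was above 1 in 9 of 10 types, with its interval above 1 in 6, and past the fold in 3. Of genes measured in those types 5.17% were higher in at least 9, and between 5.04% and 18.2% were past the fold upward in a single type. Because aged WT is in both comparisons, the higher level with age and the lower level in the knockouts rest on the same library. Loss of miR-155 in T cells on top of miR-146a went with more Tsc22d3 in Mem Cd8, where the double knockout stood at 1.70 (1.29 to 2.27) times the miR-146a knockout. Of genes measured in Mem Cd8 7.49% were past the fold upward. This Tsc22d3 ratio was above 1 in 9 of 13 types and below 1 in 4. Mem Cd8 was the only type past the fold and the only type with an interval above 1. In the T cell class this ratio was 1.37 (1.19 to 1.58), or 1.19 with the aged WT mix of types, and in B cells it was 1.11 (1.02 to 1.22).

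**Figure D2:**
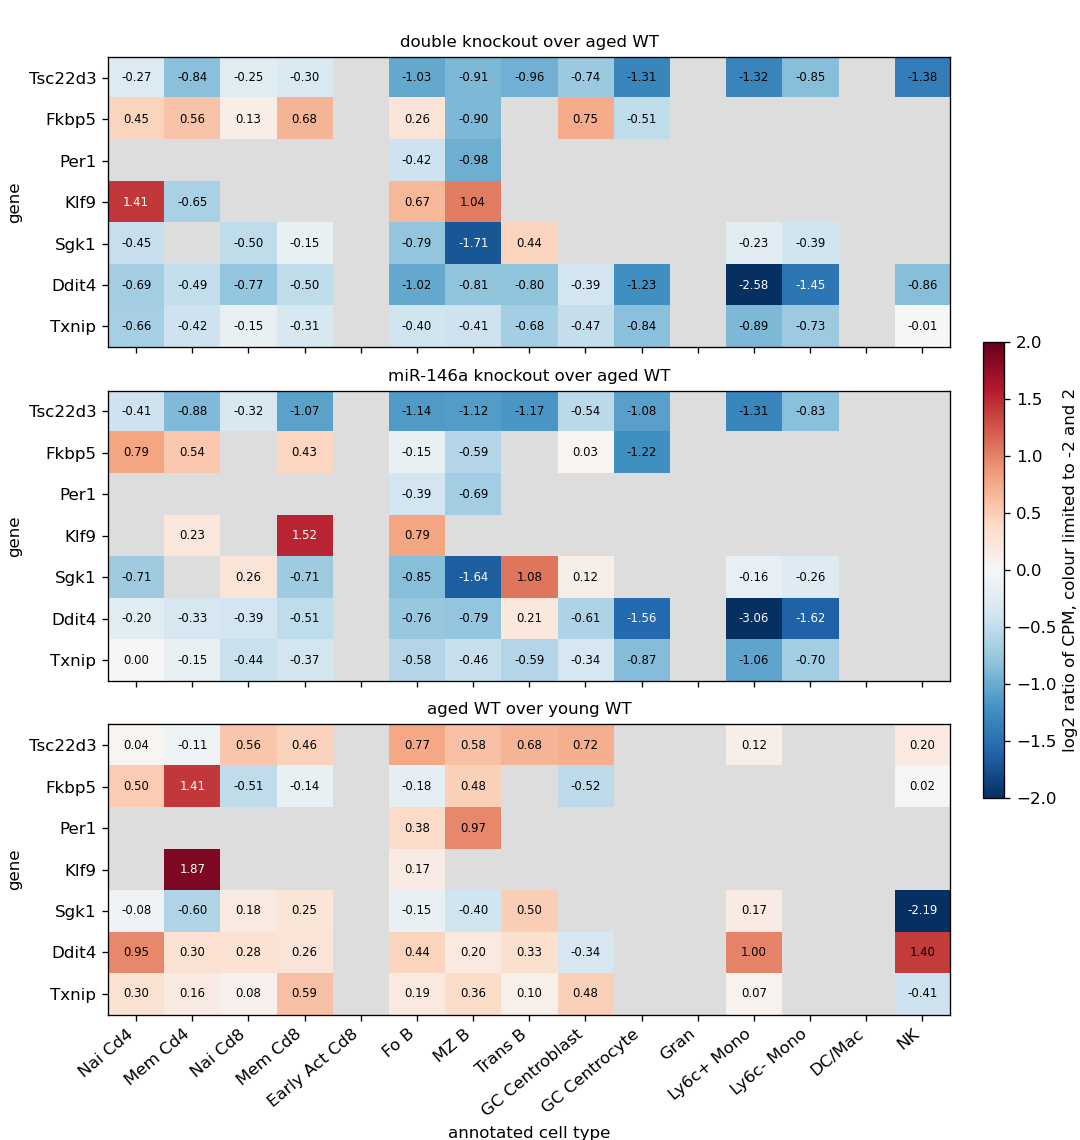
Log2 ratios of the 7 genes (vertical) by annotated cell type (horizontal) for the double knockout over aged WT, the miR-146a knockout over aged WT, and aged WT over young WT, 1 panel each; colour is limited to between -2 and 2, and grey cells had under 20 UMIs or under 50 cells in a library. Tsc22d3 is below 0 in all 11 types read for the miR-146a knockout over aged WT, and Fkbp5 is above 0 in Mem Cd4 in all 3 panels.

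Ddit4 and Txnip, which restrain growth and glucose uptake, were also lower in the knockouts in most types. Ddit4 in the miR-146a knockout was below aged WT in 10 of 11 types, past the fold in 6, beside 3.48% of genes that were lower in at least 10. In the double knockout it was below aged WT in 12 of 12 types, past the fold in 9, with ratios between 0.167 and 0.763, beside 1.4% of genes that were lower in each of the 12. In Fo B Ddit4 was at 31.7 CPM in the double knockout, 38.0 in the miR-146a knockout, 64.3 in aged WT and 47.3 in young WT. In MZ B it was at 43.8, 44.5, 76.9 and 66.8 CPM in the same order. Both knockouts lay below both WT libraries in these B cell types. The ratio of the miR-146a knockout to aged WT was 0.585 (0.504 to 0.677) over all B cells and 0.806 (0.713 to 0.911) over all T cells. The lowest ratio was in Ly6c+ Mono, at 6.00 CPM against 50.05 CPM in aged WT, which rests on 3 and 17 UMIs (0.120, 0.0225 to 0.415). In GC Centrocyte the ratio was 0.339, and it turned above 1 without cells holding markers of another class. The GC Centrocyte ratio of the double knockout to aged WT turned above 1 there too, with a log2 ratio of -1.23 that became 0.72. The counts of 10 and 12 types given above include GC Centrocyte.

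In Nai Cd4 cells Ddit4 was highest in aged WT. The level was 121 CPM in the double knockout, 170 in the miR-146a knockout, 196 in aged WT and 101 in young WT. Aged WT was 1.94 (1.63 to 2.30) times young WT, and the double knockout was 0.715 (0.562 to 0.910) of the miR-146a knockout. The memory markers given above for these cells moved too, and their part in the result was not tested. NK cells gave a ratio of 2.63 (1.45 to 4.85) for aged over young WT, at 117 CPM against 44.5 CPM.

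Txnip in the miR-146a knockout was below aged WT in 10 of 11 types, past the fold in 4, and in the double knockout in 12 of 12 types, past the fold in 5, beside the 3.48% and 1.4% of genes that were lower as widely. GC Centrocyte is among the types past the fold in the miR-146a knockout. Its log2 ratio turned from -0.87 to 0.24 without cells holding markers of another class. In single types 7.5% to 15.2% of genes were past the fold downward in the miR-146a knockout and 6.31% to 13.2% in the double knockout. In Nai Cd4 it was at 132 CPM in the double knockout, 209 in the miR-146a knockout, 209 in aged WT and 170 in young WT. The double knockout stood apart there, at 0.633 (0.506 to 0.791) of the miR-146a knockout. In Fo B Txnip was at 163, 144, 216 and 189 CPM in the order double knockout, miR-146a knockout, aged WT and young WT. Ly6c+ Mono had 86.0 CPM in the miR-146a knockout against 180 CPM in aged WT, a ratio of 0.479. In Mem Cd8 aged WT exceeded young WT by 1.51-fold (1.24 to 1.83), at 208 CPM against 138 CPM. By class the ratio of the miR-146a knockout to aged WT was 0.844 for T cells, 0.656 (0.602 to 0.714) for B cells and 0.446 (0.357 to 0.559) for the myeloid class.

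**Figure D3:**
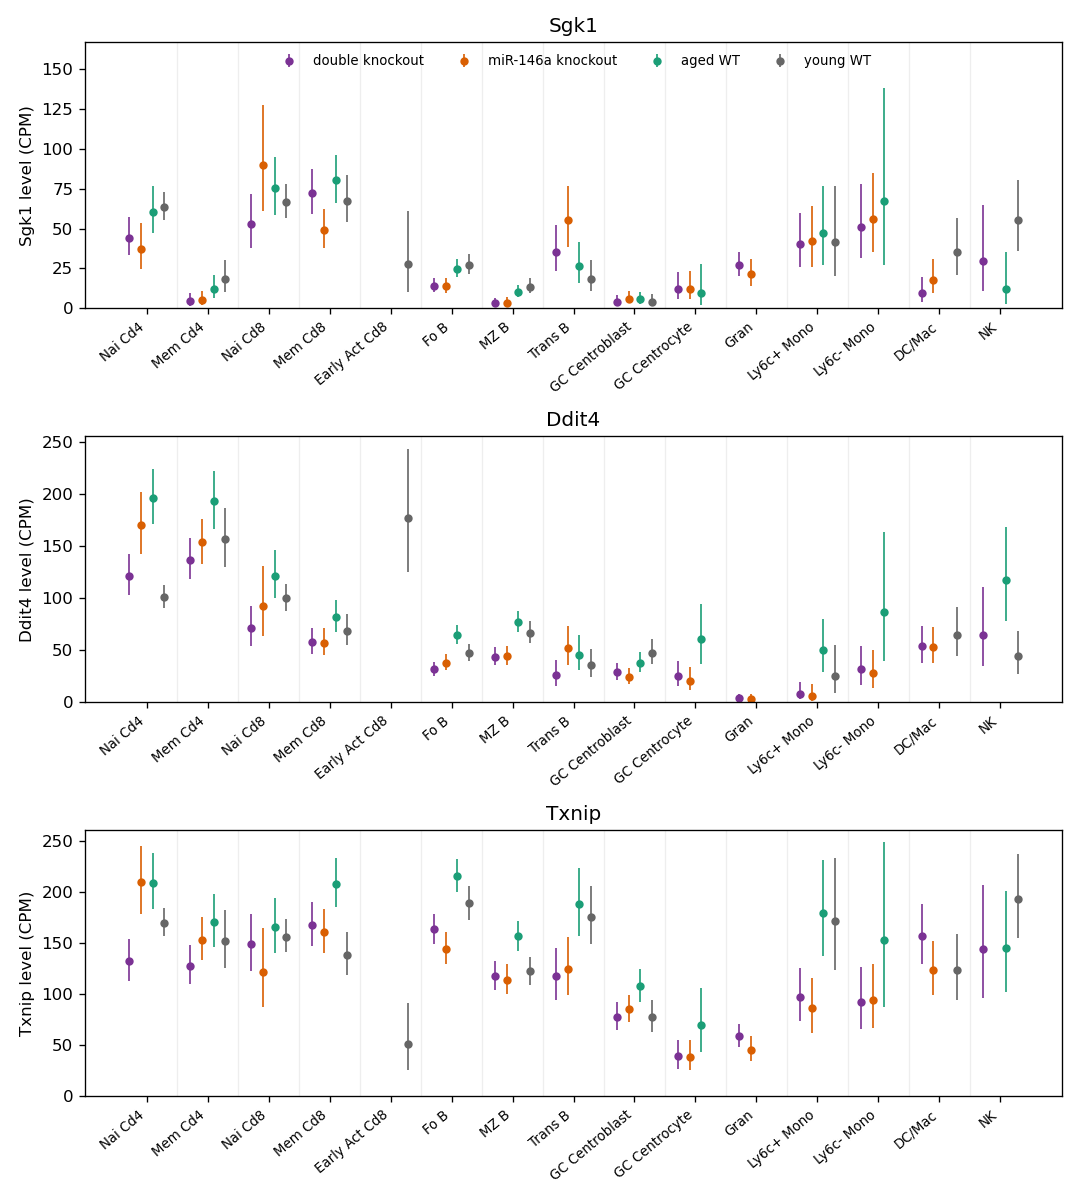
Sgk1, Ddit4 and Txnip levels in CPM (vertical axes) by annotated cell type (horizontal axis) in the 4 libraries; points are summed UMIs of 1 library and bars are exact Poisson 95% intervals, with types under 50 cells in a library not drawn. Ddit4 in Nai Cd4 is at 196 CPM in aged WT and 101 CPM in young WT, and Sgk1 in Trans B is highest in the miR-146a knockout at 55.2 CPM.

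Sgk1 did not move one way. In Trans B it was at 35.5 CPM in the double knockout, 55.2 in the miR-146a knockout, 26.2 in aged WT and 18.6 in young WT, so both knockouts exceeded both WT libraries. In MZ B it was at 3.13, 3.28, 10.2 and 13.5 CPM in that order, and in Fo B at 14.2, 13.6, 24.5 and 27.2 CPM, so both knockouts lay below both WT libraries. The ratio of the miR-146a knockout to aged WT was 2.11 (1.16 to 3.95) in Trans B, 0.320 (0.118 to 0.747) in MZ B and 0.557 (0.359 to 0.847) in Fo B. In Mem Cd8 it was 0.612 (0.445 to 0.835), at 49.0 CPM against 80.1 CPM, and in Nai Cd4 it was 0.610 (0.378 to 0.960). The double knockout exceeded the miR-146a knockout in Mem Cd8, at 72.2 CPM against 49.0 CPM, and lay below it in Nai Cd8, at 53.0 CPM against 89.9 CPM. NK cells held 12.1 CPM in aged WT against 55.1 CPM in young WT, from 3 and 26 UMIs (ratio 0.220, 0.0426 to 0.717). The difference between types in the direction of Sgk1 was not tested.

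Fkbp5, whose product feeds back on the receptor, was higher in the T cells of the knockouts, where Tsc22d3 was lower. In Mem Cd4 it was at 81.6 CPM in the double knockout, 80.4 in the miR-146a knockout, 55.2 in aged WT and 20.8 in young WT. Both knockouts lay above both WT libraries, and the double knockout was at 1.02 (0.774 to 1.33) times the miR-146a knockout. Aged WT was 2.65 (1.5 to 4.96) times young WT in Mem Cd4, and the miR-146a knockout was 1.46 (1.04 to 2.05) times aged WT. Over all T cells the miR-146a knockout stood at 1.80 (1.41 to 2.30) times aged WT, or 1.47 with the aged WT mix of types and 1.85 without cells holding markers of another class. In B cells this ratio was 0.821, and Fkbp5 there lay between 7.35 and 9.69 CPM. DC/Mac cells had 8.23 CPM in the double knockout against 27.7 CPM in the miR-146a knockout (0.297, 0.0975 to 0.766).

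Mem Cd4 cells differ in make-up between the libraries, and they were split by Foxp3, which marks regulatory T cells, and by Pdcd1, Cxcr5, Sostdc1 and Il21, which mark T follicular helper cells. These markers were chosen after values were seen. Cells with a follicular helper marker and no Foxp3 made up 53.9% of Mem Cd4 in the double knockout, 51.3% in the miR-146a knockout, 49.6% in aged WT and 12.1% in young WT. In cells with neither kind of marker Fkbp5 was at 87.2 CPM (59.2 to 124) in the double knockout, 93.7 (63.2 to 134) in the miR-146a knockout, 38.0 (20.8 to 63.7) in aged WT and 20.2 (9.68 to 37.1) in young WT. In this fraction both knockouts lay above both WT libraries, though the intervals of the double knockout and aged WT overlapped, as, by a narrow margin, did those of the miR-146a knockout and aged WT. In cells with a follicular helper marker and no Foxp3 it was at 86.7 CPM (67.5 to 110) in the double knockout, 75.1 (56.5 to 97.7) in the miR-146a knockout, 70.4 (49.6 to 97.1) in aged WT and 39.7 (10.8 to 102) in young WT, and the 4 intervals overlapped. In Foxp3 cells it was at 57.0 CPM (31.2 to 95.7) in the double knockout and 79.1 (50.1 to 119) in the miR-146a knockout. Aged WT had 39.1 CPM (10.6 to 100) from 4 UMIs, and young WT had 11.6 CPM from 2 UMIs. The intervals of both knockouts overlapped that of aged WT, so no order between them is read in Foxp3 cells. Tsc22d3 in cells with neither kind of marker was at 81.5 CPM (54.6 to 117) in the double knockout, 68.7 (43.1 to 104) in the miR-146a knockout, 136 (101 to 179) in aged WT and 125 (96.0 to 160) in young WT.

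**Figure D4:**
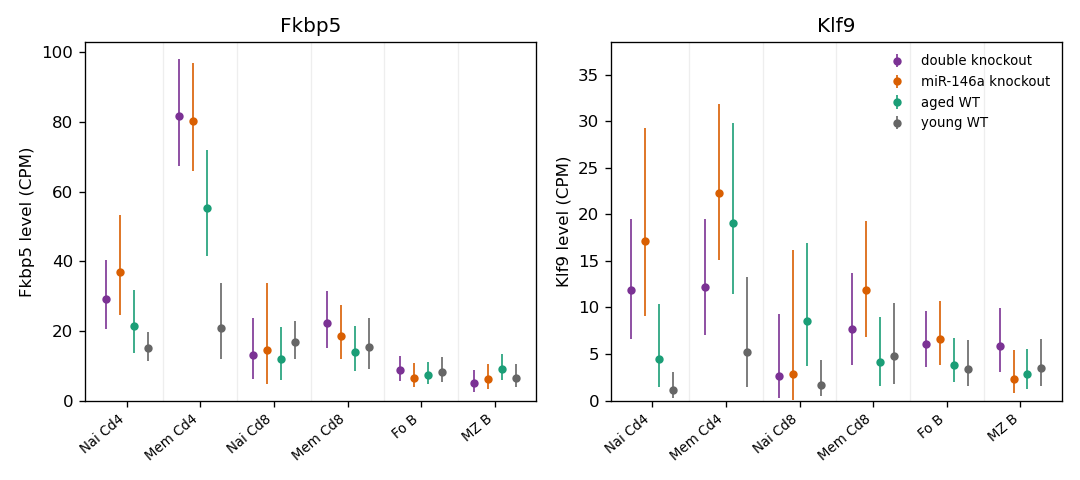
Fkbp5 and Klf9 levels in CPM (vertical axes) in 6 lymphocyte types (horizontal axis) of the 4 libraries; points are summed UMIs of 1 library and bars are exact Poisson 95% intervals. Fkbp5 in Mem Cd4 stands at 81.6 CPM in the double knockout, 80.4 in the miR-146a knockout, 55.2 in aged WT and 20.8 in young WT.

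Klf9 and Per1, the transcription factor and the clock repressor, were sparse. Klf9 in T cells was at 9.11 CPM in the double knockout, 16.0 in the miR-146a knockout, 8.55 in aged WT and 2.38 in young WT. The miR-146a knockout was the highest library and young WT the lowest. Aged WT was 3.59 (2.03 to 6.58) times young WT, the miR-146a knockout was 1.87 (1.23 to 2.86) times aged WT, and the double knockout was 0.571 (0.382 to 0.849) of the miR-146a knockout. With the aged WT mix of types the ratio of aged to young WT was 2.52. Over the alternatives these ratios lay between 2.52 and 4.42, 1.62 and 2.08, and 0.505 and 0.628, in that order. In Mem Cd4 Klf9 was at 12.2, 22.3, 19.1 and 5.20 CPM in the order double knockout, miR-146a knockout, aged WT and young WT. Per1 in T cells was at 3.57, 5.07, 5.70 and 2.38 CPM in that order, and aged WT was 2.40 (1.28 to 4.58) times young WT from 26 and 19 UMIs. In B cells this Per1 ratio was 1.58, with an interval (0.954 to 2.66) that reached 1.

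Counted over the 7 genes, T cells of the miR-146a knockout had 2 genes past the fold above aged WT, Fkbp5 and Klf9 (10.2% of measured genes were), and 2 below it, Tsc22d3 and Sgk1 (5.66% were). With the aged WT mix of types the T cell ratios of Fkbp5 (1.47) and Sgk1 (0.757) were no longer past it, nor was Sgk1 (0.835) with cells thinned to 1000 UMIs. Aged over young WT T cells had 2 higher, Klf9 and Per1 (13.9%), and 0 lower (3.71%), and after thinning Per1 (1.38) was no longer past it. The double knockout over the miR-146a knockout had 0 higher (3.91%) and 1 lower, Klf9 (7.71%), and over aged WT it had 1 higher, Fkbp5 (5.66%), and 1 lower, Per1 (4.62%). That Fkbp5 ratio was 1.44 with the aged WT mix, and the Per1 ratio, 0.626, was 0.682 without cells holding markers of another class and turned to 1.35 after thinning. B cells of the miR-146a knockout had 1 gene higher than aged WT, Klf9 (7.83%), and 3 lower, Tsc22d3, Ddit4 and Txnip (4.2%). Without cells holding markers of another class the B cell ratios of Klf9 (1.31) and Txnip (0.683) were no longer past it. Txnip was also not past it with the aged WT mix (0.700), after thinning (0.676) or with either other scaling (0.673 and 0.678), nor was Klf9 without barcodes shared between libraries (1.48). B cells of the double knockout had 1 higher, Klf9 (7.14%), and 2 lower, Tsc22d3 and Ddit4 (3.83%), and that Klf9 ratio was 1.46 without marker-bearing cells and 1.42 as a mean over cells. Aged over young WT B cells had 2 higher, Tsc22d3 and Per1 (4.24%), of which Per1 was at 1.41 as a mean over cells, and 0 lower (3.68%). The double over the miR-146a knockout had 0 past the fold (2.99% were higher and 3.33% lower). Myeloid cells of the miR-146a knockout had 4 of 6 measured genes lower than in aged WT, Tsc22d3, Sgk1, Ddit4 and Txnip (30.6%), and 2 higher, Fkbp5 and Klf9 (10.4%). Those of the double knockout had the same 4 lower than in aged WT (39.2%) and 0 higher (10.5%), and against the miR-146a knockout 2 lower, Fkbp5 and Klf9 (9.5%), and 0 higher (4.15%). The myeloid types differ in make-up, since Gran was read in the 2 knockout libraries. With the aged WT mix Sgk1 was no longer past the fold in the double knockout (0.727) or the miR-146a knockout (0.834) over aged WT, nor was Txnip in the double knockout (0.701). With TMM scaling Sgk1 was at 0.868 and 0.830, and after thinning Txnip was at 0.916 and 0.686, each in the order double knockout and miR-146a knockout. Myeloid Fkbp5 in the miR-146a knockout over aged WT was at 1.36 without shared barcodes and 1.42 with the trimmed UMI total. In the double over the miR-146a knockout Fkbp5 was at 0.682 without marker-bearing cells and 0.668 with TMM scaling, and Klf9 was at 0.678 with the aged WT mix and turned to 1.06 after thinning. Myeloid cells of aged over young WT had 0 of 4 past the fold (8.97% of genes were higher and 13.1% lower). Of the 30 class ratios past the fold, 14 stayed past it under each alternative that was run, among them Tsc22d3 and Ddit4 in B and myeloid cells of both knockouts over aged WT, and Tsc22d3 in T cells of the miR-146a knockout. The median log2 ratio of the miR-146a knockout to aged WT was -0.24 over the 7 genes in T cells against 0.06 over all genes, and -0.50 in B cells against -0.04.

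Of 13 genes for the receptor, its chaperones and cofactors, 12 were measured in T cells, and 0 were past the fold between aged WT and young WT or between either knockout and aged WT. Of all measured genes 13.9% were higher and 3.71% lower for aged over young WT, 10.2% and 5.66% for the miR-146a knockout, and 5.66% and 4.62% for the double knockout. Ncoa1, a coactivator, was at 13.7 CPM in the double knockout against 20.8 in the miR-146a knockout. In B cells 1 of 12 was lower in the miR-146a knockout (4.2% of genes were), Hsd11b1, which regenerates active hormone, at 17.0 CPM in the miR-146a knockout against 26.1 in aged WT. In myeloid cells, which differ in make-up, 3 of 12 were lower and 1 higher in the miR-146a knockout, beside 30.6% and 10.4% of genes. In the double knockout 8 of 12 were lower than in aged WT and 1 higher, beside 39.2% and 10.5%. Other known glucocorticoid-induced genes numbered 32 in all. In T cells of aged over young WT 10 of 24 were higher and 1 was lower, beside 13.9% and 3.71% of all measured genes. Their median log2 ratio there was 0.45 against 0.11 over all genes. In the miR-146a knockout they split in direction. In T cells of the miR-146a knockout 7 of 25 were higher than in aged WT and 2 were lower, beside 10.2% and 5.66% of all measured genes, and their median log2 ratio was 0.16 against 0.06 over all. Il1r2, a decoy receptor for interleukin-1, was at 97.0 CPM against 22.6 in aged WT, and Pik3ip1, an inhibitor of PI3 kinase, was at 54.5 against 125 CPM. In B cells 3 of 24 were higher and 3 lower (7.83% and 4.2% of all genes; median -0.06 against -0.04), and the lower ones were Pik3ip1, Zfp36l2 at 58.8 CPM against 121, and Arrdc3. Cytokines that glucocorticoids are known to repress were higher in T cells of the miR-146a knockout in 4 of 6 measured genes, beside 10.2% of all genes, and lower in 0, with a median log2 ratio of 1.36 against 0.06 over all genes. This was not particular to the knockout. In T cells of aged over young WT 4 of 6 were higher as well (13.9% of genes were) and 0 lower (3.71%). The median log2 ratio there was 1.66 against 0.11 over all genes. Ccl3, a chemokine, was at 107 CPM in the miR-146a knockout against 6.36 in aged WT, and Ifng, the type II interferon, at 34.7 against 11.6 CPM. Granulocyte markers stood beside these values in T cells: in Mem Cd4 4 or 5 of 6 were detected in each library, at a sum of 1132 CPM in the double knockout, 961 in the miR-146a knockout, 20.1 in aged WT and 13.0 in young WT. Their part in the Il1r2, Ccl3 and Ifng levels was not tested. In myeloid cells of the miR-146a knockout 11 of 27 other induced genes were lower than in aged WT and 5 higher, beside 30.6% and 10.4%. Of the 6 repressed cytokines measured there 3 were lower and 2 higher, with a median log2 ratio of -0.70 against -0.38 over all genes. In the double knockout over aged WT 15 of 25 other induced genes were lower and 5 higher, beside 39.2% and 10.5%. Repressed cytokines there had 3 of 6 lower and 2 higher.

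Immediate early and heat shock genes, which are known to rise when tissue is dissociated, were higher in aged than in young WT in 6 of 16 B cell genes and lower in 1, beside 4.24% and 3.68% of all measured genes. In B cells of the miR-146a knockout 5 of 16 were lower than in aged WT (4.2% of genes were) and 1 was higher (7.83%). Their median log2 ratio in B cells was 0.30 for aged over young WT, against -0.02 over all genes, and -0.42 for the miR-146a knockout over aged WT, against -0.04. Fos, an AP-1 subunit, was at 28.6 CPM in double knockout B cells, 26.8 in the miR-146a knockout, 53.6 in aged WT and 12.4 in young WT. Aged WT was thus the highest library for Fos in B cells as it was for Tsc22d3, and the part of these genes' response in the Tsc22d3 result was not tested. In T cells 8 of 17 were higher in aged than in young WT (13.9% of genes were), and in the miR-146a knockout 2 were higher (10.2%) and 2 lower (5.66%) than in aged WT. In myeloid cells 13 of 17 were lower in the miR-146a knockout than in aged WT (30.6% of genes were) and 1 was higher (10.4%), and 7 of 14 were higher in aged than in young WT (8.97%).

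Likeness of pattern was read as Pearson's r of log2(CPM + 5) over 51 sums of type and library, among 7507 genes. Sums of 1 library share its depth and pool, so r is a description. Tsc22d3 was most like Klf2 (0.741), Add3 (0.715) and Ube2d1 (0.715). Fkbp5 was most like Syt11 (0.853), Sept7 (0.851) and Tox (0.843), and Ddit4 was most like Chd3 (0.908), Sigirr (0.870) and Cd27 (0.857). The leading gene was Ppp2r5a (0.781) for Sgk1, Arhgap45 (0.768) for Txnip, Sympk (0.658) for Per1 and Pnkd (0.638) for Klf9. Among the 7 themselves Tsc22d3 and Txnip had an r of 0.693, Ddit4 and Txnip 0.533, and Tsc22d3 and Fkbp5 -0.541.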

How the data were processed

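Per the labels' protocols, sorted splenocytes were made into 10x Genomics libraries; both 3′ and 5′ chemistry are named there. Per the submitters' processing notes, Cell Ranger 3.0.0 and mm10 were used. The authors deposited raw UMI counts and, as other values, 16 cell type names, and the sources used here do not say how these were assigned. Unnamed barcodes and the T/B doublet type were left out of type comparisons, and no doublet caller was run. The 7 genes, the gene lists and the types were chosen with earlier results of these data known.

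UMIs were summed per type or class and library (T for all Cd4 and Cd8 types; B for all B and GC types; myeloid for Gran, both Mono types and DC/Mac) in Python 3.11.15 with numpy 2.4.6, scipy 1.17.1 and pandas 2.3.3. Poisson intervals were exact, and ratios had conditional binomial intervals at 95%. The ratio script was tested on simulated counts. All 7 genes were named, with up to 3 genes per direction, list, class and comparison that were past 1.5-fold with at least 50 UMIs; Mir155hg was added. Alternatives were TMM scaling (edgeR 4.0.16), other totals, thinning, marker-free cells, other minimums and a fixed mix of types; leaving out shared barcodes was added after seeing the data.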

Additional observations from a re-analysis of the deposited data

Results flagged for a closer look

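Sgk1 went in opposite directions in different cell types under one contrast, which was not tested. The miR-146a knockout over aged WT gave 2.11 in Trans B, against 0.61 in Nai Cd4, 0.612 in Mem Cd8, 0.557 in Fo B and 0.32 in MZ B. The double knockout over the miR-146a knockout gave 1.47 in Mem Cd8 and 0.59 in Nai Cd8. Each of these 7 intervals excluded 1 for counting error.

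Barcodes without a cell type name, which entered no comparison, also held UMIs of the 7 genes above what a count of 0 allows. Pooled over the 4 libraries their levels were 69.4 CPM for Tsc22d3, 15.1 for Fkbp5, 4.18 for Per1, 3.5 for Klf9, 10.3 for Sgk1, 29.8 for Ddit4 and 75.2 for Txnip. Tsc22d3 there ranged between 45.6 and 108 CPM by library. The libraries held 703 such barcodes in the double knockout, 870 in the miR-146a knockout, 1056 in aged WT and 805 in young WT. In that order, 461, 588, 962 and 762 of them had at least 5% mitochondrial UMIs, and 240, 271, 92 and 42 had over 9000 UMIs. The pooled levels therefore mix unlike barcodes in shares that differ by library, and the part of each kind was not tested.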

How the results depend on the processing

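Over 300 single ratios and 1862 values under alternatives, 1769 moved by less than the counting interval, 83 moved beyond it and 10 reversed. A reversal was counted only for ratios past 1.5-fold, so changes of sign in smaller ratios are not among the 10. Per1 in T cells, miR-146a knockout over aged WT, is such a case. Its log2 ratio was -0.17 and lay between -0.30 and 0.75 over the alternatives. Of 116 ratios past 1.5-fold, 109 stayed past it with TMM scaling, 105 with the mean over cells of CPM and 111 without shared barcodes; of the 111 that could be recomputed, 82 did after thinning to 1000 UMIs and 88 without cells holding markers of another class. The cause of each change below was not tested. The count of genes past the fold, aged over young WT, changed in T cells (2) to 4 with the mean over cells and 1 with at least 50 UMIs, in B cells (2) to 1 with the mean over cells, and in myeloid cells (0) to 1 with the mean over cells, 2 after thinning and 2 with no minimum. For the miR-146a knockout over aged WT it changed in T cells (4) to 2 with the aged WT mix and in B cells (4) to 2 without marker-bearing cells. For the double over the miR-146a knockout it changed in T cells (1) to 2 with the mix, in B cells (0) to 1 after thinning and 1 without marker-bearing cells, and in myeloid cells (2) to 1 with TMM, marker-free cells, at least 50 UMIs or the mix. For the double knockout over aged WT it changed in T cells (2) to 1 with at least 50 UMIs and in myeloid cells (4) to 2 with the mix. Sgk1 above B cells in myeloid cells without overlap (1 gene) became 0 after thinning. Leaving out 1 library at a time gave 3 to 4 genes not overlapping for T over B cells, 1 for myeloid over B and 2 for T over myeloid cells.

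Reversed log2 ratios without marker-bearing cells were 0.45 for Ddit4 and 0.24 for Txnip in GC Centrocyte (miR-146a knockout over aged WT), 0.72 for Ddit4 in GC Centrocyte (double knockout over aged WT) and -0.22 for Fkbp5 in Gran (double over miR-146a knockout). After thinning, the double over the miR-146a knockout gave 0.088 for Klf9 in myeloid cells, 0.049 for Sgk1 in DC/Mac, and for Fkbp5 -0.086 in GC Centroblast, -1.22 in GC Centrocyte and -0.10 in Gran. After thinning, Per1 in T cells gave 0.44 for the double knockout over aged WT. No paired analysis was possible because each group had 1 library. Depth limited Per1 and Klf9 most, with 311 and 420 UMIs in all barcodes.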

Other observations

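Clock genes other than Per1 were read as a list of 16. In T cells 5 of 11 measured were higher in aged than in young WT (13.9% of all measured genes were), and 0 were lower (3.71%); Bhlhe40, a clock-linked repressor, was at 29.8 CPM against 3.76, and Nfil3 at 14.5 against 3.00 CPM. In B cells of the miR-146a knockout 3 of 12 were higher (7.83% of genes were) and 2 lower (4.2%) than in aged WT: Bhlhe41 was at 41.6 CPM against 19.6, and Arntl, a core activator of the clock, at 25.8 against 13.7 CPM, whereas Per3 was at 5.67 against 9.06 CPM.

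Of 14 FoxO and glucose-response genes measured in T cells, 2 were higher and 2 lower in the miR-146a knockout than in aged WT, beside 10.2% and 5.66% of all measured genes. Txn1, the thioredoxin that Txnip binds, was at 346 CPM against 214. Of 11 ATF4 and hypoxia genes 5 were higher and 1 lower beside the same shares, with Hif1a, the hypoxia factor, at 149 CPM against 83.1. Among relatives of the 7 genes, 1 of 13 measured in T cells was higher and 1 lower, beside the same shares. The lower one, Sgk3, was at 3.80 CPM in the miR-146a knockout against 13.1 in aged WT. In B cells 0 of 13 were higher and 2 lower (7.83% and 4.2% of genes), with Tsc22d1 at 10.6 against 18.4 CPM.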
